A study of Mus musculus with 8 samples.

Results

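Klf2, Klf3, Klf6, Tcf7, Lef1 and Foxo1 are 6 genes for transcription factors that are known, to different degrees, for keeping T cells in a resting and circulating state. They were taken by symbol from the tables of unique molecular identifiers (UMIs, 1 per captured transcript) of the series, and all 6 were found among the 31053 listed genes. The tables come from droplet single-cell RNA sequencing of CD4+ cells enriched, with an isolation kit, from the lamina propria of the colon, a layer of connective tissue beneath the epithelium. All mice were C57BL/6 and 10 to 12 weeks old. The 4 groups were wildtype untreated, RORgtS182A untreated, wildtype with dextran sulfate sodium (DSS), and RORgtS182A with DSS, at 2 libraries each, described in the design as independent biological replicates. RORgtS182A is a mutant of RORγt, the transcription factor that defines Th17 cells, and the sample titles write the allele as S203AKI. DSS, a polymer that injures the colonic epithelium, was given at 2% in the drinking water for 7 days and was followed by plain water for 3 days. Untreated mice drank plain water for 10 days, and all mice were taken on day 10. The labels do not say whether the mutation is in every cell, and gene-level UMIs cannot check an amino acid change, so genotypes rest on the labels.

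Naive T cells circulate through blood and lymph until they meet their antigen. Foxo1 is held in the cytoplasm when the kinase Akt is active and otherwise enters the nucleus, where it drives Klf2 and Il7r. Klf2 drives S1pr1, the receptor that lets T cells leave tissue and lymph nodes, so loss of Klf2 and S1pr1 is known as a mark of cells that stay in tissue. Klf3 and Klf6 are relatives of Klf2 that bind the same kind of CACCC-rich DNA. Klf3 is known mainly as a repressor, and Klf6 is an early-response gene in many cell types. Tcf7 (the protein TCF-1) and Lef1 are paired HMG-box factors downstream of Wnt signalling, known for the identity of naive and memory T cells and for their decline in effector cells.

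The genes lie on 5 chromosomes in the RefSeq annotation of the mouse build GRCm38.p6, and all are protein coding. Klf2 (ENSMUSG00000055148) spans chr8:72319062-72321654, Klf3 (ENSMUSG00000029178) spans chr5:64803521-64832901 and Klf6 (ENSMUSG00000000078) spans chr13:5861489-5870393. Tcf7 (ENSMUSG00000000782) spans chr11:52246527-52283383, and Lef1 (ENSMUSG00000027985) and Foxo1 (ENSMUSG00000044167) share a chromosome at chr3:131110297-131224357 and chr3:52268337-52350109. The 250 bases before the annotated start are printed for 4 of the genes as examples of both orders below, since Klf2, Klf3 and Lef1 had their highest mean in the naive-like T cells and Klf6 its lowest. They come from the RefSeq promoter table of that build, read 5′ to 3′ on the coding strand, which is the plus strand for all 4. Capitals mark CACCC, the core bound by Kruppel-like factors, on either strand (GGGTG on the printed one).
Klf2, chr8:72318812-72319061: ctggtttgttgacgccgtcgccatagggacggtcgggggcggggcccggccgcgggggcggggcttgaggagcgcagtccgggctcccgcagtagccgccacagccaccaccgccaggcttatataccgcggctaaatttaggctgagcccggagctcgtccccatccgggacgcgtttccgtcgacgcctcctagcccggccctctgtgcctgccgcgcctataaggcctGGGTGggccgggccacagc
Klf3, chr5:64803271-64803520: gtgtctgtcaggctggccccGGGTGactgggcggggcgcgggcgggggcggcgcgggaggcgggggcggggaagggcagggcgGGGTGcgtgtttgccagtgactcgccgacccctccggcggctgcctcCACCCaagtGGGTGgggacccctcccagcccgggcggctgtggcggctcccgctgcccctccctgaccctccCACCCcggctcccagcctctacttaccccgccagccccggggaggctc
Lef1, chr3:131110047-131110296: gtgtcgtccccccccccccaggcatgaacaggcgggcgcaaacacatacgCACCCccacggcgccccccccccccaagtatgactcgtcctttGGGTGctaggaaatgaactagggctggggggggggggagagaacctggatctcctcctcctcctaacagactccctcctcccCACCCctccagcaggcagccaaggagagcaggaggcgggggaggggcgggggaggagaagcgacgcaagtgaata
Klf6, chr13:5861239-5861488: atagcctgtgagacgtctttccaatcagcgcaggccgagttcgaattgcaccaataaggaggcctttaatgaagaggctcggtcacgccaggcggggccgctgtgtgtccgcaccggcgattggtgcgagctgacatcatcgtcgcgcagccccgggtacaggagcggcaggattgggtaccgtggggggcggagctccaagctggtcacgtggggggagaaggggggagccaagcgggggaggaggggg

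CACCC was found 5 times before Klf3, 3 times before the first Lef1 start, once before Klf2, and in neither the Klf6 nor the Foxo1 window. Each of the 2 Tcf7 windows held it 2 times. They are not printed because both lie inside the annotated gene span, and the first may hold coding sequence of another transcript. The motif is common, since 52.0% of the 32851 promoters of the table held it in a window of the same length. GTAAACA, the core that Foxo factors bind, was in none of the 10 windows of the 6 genes and in 3.17% of all windows. CTTTGA, a core bound by Tcf7 and Lef1, was found 2 times before the fourth Lef1 start and in 13.8% of all windows. A match is a string of letters, and no binding was measured.

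The authors' list of kept cells held 27420 cells in the 8 libraries, and every one of them had a Cd4 UMI, 400 or more genes and a mitochondrial share of UMIs under 20%. Clustering done here, without the 6 genes, put 20734 of them into 9 T cell clusters, called the CD4 T cells below, with 1781 to 3752 cells and 6197714 to 14931711 UMIs per library. Levels are CPM, the UMIs of a gene per 1000000 UMIs of the named cells in that library. The T cell genes Cd3e, Cd3d, Cd3g, Trac, Trbc1, Trbc2, Lck and Lat summed to 4048 to 4649 CPM in the untreated and 3226 to 3882 CPM in the DSS CD4 T cells, so the groups did not overlap. Named subsets were Th17-like (3607 cells), Th1-like (3545), Treg-like (4605), Naive or central memory-like (1028) and Proliferating (1465). The Th1-like cluster was led by Ccl5, Gzmk and Eomes and also had Klrd1, Gzma and Klrk1 among its leading genes, beside Il12rb2. Its name therefore does not mark it as Th1 cells alone. The other 3 clusters stayed unnamed, and 1 of them, cluster 6, was led by prostate and seminal vesicle genes (Pbsn, Tgm4, Svs5) with Hspa1a and gave 31.6% of its cells from untreated mutant replicate 1. Cluster 6 made up 8.25% to 30.2% of the untreated and 1.67% to 3.51% of the DSS CD4 T cells. Treg-like cells made up 11.6% to 16.0% of the untreated and 22.8% to 29.7% of the DSS CD4 T cells.

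Among the named subsets, Klf2, Tcf7 and Lef1 were highest in the Naive or central memory-like cluster, which was named from fixed markers, among them Ccr7, S1pr1, Dapl1 and Igfbp4. Its cells had no member among their clustering genes, but the markers and the members may share regulation, so the levels by cluster are a description with no test. Klf2 had a mean of 901 CPM there (SD 138, n = 8 libraries, range 709 to 1149). In the Th1-like cells its mean was 160 CPM (SD 43.3), in Treg-like cells 140 CPM (SD 33.9), in proliferating cells 115 CPM (SD 44.7) and in Th17-like cells 82.1 CPM (SD 16.8). The naive range lay above every other subset, whereas each later neighbour in that order overlapped the next.

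Lef1 was the most unevenly spread, with 465 CPM in the naive-like cells (SD 63.6, n = 8, range 371 to 557) and 40.1 CPM (SD 6.26) in proliferating cells, the next highest. Th1-like (34.0 CPM), Treg-like (33.6 CPM) and Th17-like cells (19.95 CPM) followed, each overlapping its neighbour. Tcf7 averaged 349 CPM in naive-like cells (SD 112.4, range 202 to 516), 139 CPM in Th1-like, 104 CPM in proliferating, 75.6 CPM in Th17-like and 53.5 CPM in Treg-like cells. Here too only the naive-like range stood clear of the next. Klf3 followed the order naive-like (189 CPM), Th1-like (114 CPM), Treg-like (77.4 CPM), proliferating (66.0 CPM) and Th17-like (47.5 CPM), with every pair of neighbours overlapping, although naive-like was above Th1-like in 8 of 8 libraries.

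Klf6 and Foxo1 ran the other way and were lowest in the naive-like cells. Klf6 averaged 839 CPM in Th17-like (SD 80.7, n = 8), 707 CPM in Treg-like, 697 CPM in Th1-like, 468 CPM in proliferating and 347 CPM in naive-like cells (SD 44.2). Foxo1 averaged 392 CPM in Th17-like, 391 CPM in Treg-like, 289 CPM in Th1-like, 225 CPM in proliferating and 207 CPM in naive-like cells. All neighbours overlapped in both orders, and Th17-like lay above Treg-like in 8 of 8 libraries for Klf6 and in 4 of 8 for Foxo1. Foxo1 is regulated mainly by where its protein is, which UMIs do not show.

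**Figure D1:**
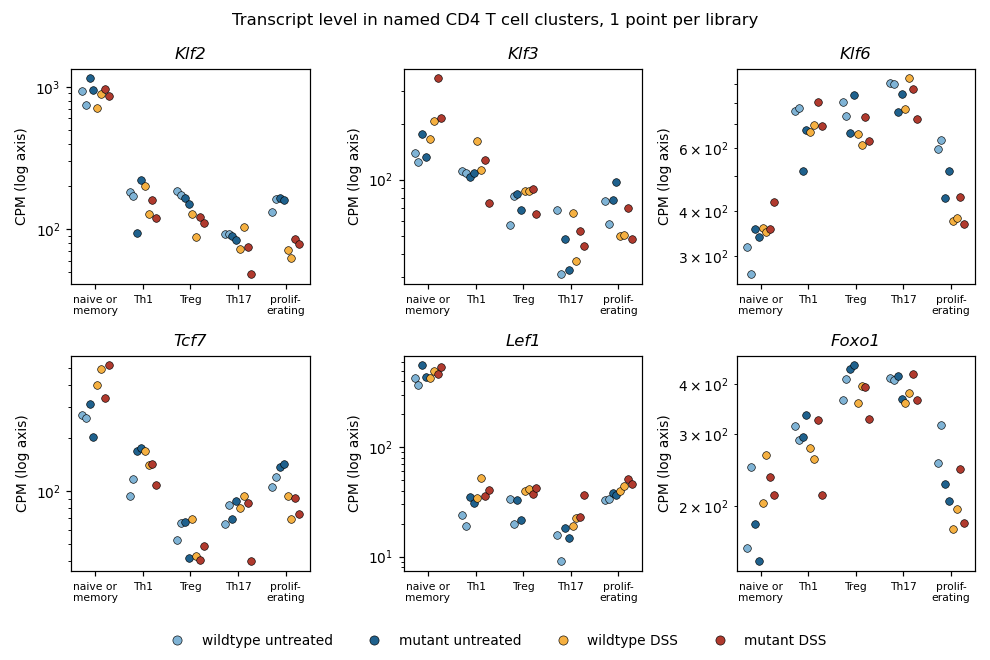
Level of each of the 6 genes (CPM, log axis) in the 5 named T cell subsets, with 1 point per library, coloured by group. Klf2, Tcf7 and Lef1 stand highest in the naive-like subset, without overlap with any other named subset, and Klf6 and Foxo1 have their lowest mean there.

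Among the unnamed clusters, cluster 3, led by the haemoglobin genes Hbb-bs, Hba-a1, Hbb-bt and Hba-a2, followed by Sostdc1 and Fbn2, held about as much Tcf7 as the naive-like cells. Over all CD4 T cells, red cell genes summed to at most 1.69 CPM in untreated and to 0.96 to 256 CPM in DSS libraries. The best marker match of cluster 3 was follicular helper-like (mean log2 ratio 1.92, 7 markers detected), with Cxcr5 among its leading genes. Cluster 3 stayed unnamed because those leading genes held more red cell than follicular helper markers. Its 8 libraries held 279 to 434 CPM of Tcf7 (mean 343 CPM, against 349 CPM in the naive-like cells), and among untreated libraries its mean was the higher of the pair (295.5 against 261 CPM), and among DSS libraries the lower (391 against 436 CPM). They held 64.9 to 105 CPM of Lef1, with 173 to 245 CPM of Klf2. Cluster 5, led by Tdrp, Pxdc1 and S1pr1 among others, held 222 to 348 CPM of Klf2 and 67.1 to 154 CPM of Lef1. In cluster 6, Klf6 reached 739 to 1441 CPM.

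To compare levels across T cell types with a test, cells were also put into 5 exclusive classes by their own transcripts, none of which is a member. These were cells with a Foxp3 UMI (the regulatory T cell factor), then at least 2 Il17a or Il17f UMIs, then at least 2 Ifng UMIs, and the remaining cells in 2 further classes that serve here only as part of the comparison. Each class was set against the mean of the other 4 in the same libraries with edgeR's quasi-likelihood test, adjusted by Benjamini-Hochberg over 8007 genes. The 40 sums come from 8 libraries, and the share of genes called is large, so counts are read against it.

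All 6 genes changed in the cells with Il17 transcripts, 4 lower and 2 higher, against a share of 26.1% of genes called. On the log2 scale, Lef1 fell by 0.93 (SE 0.10, edgeR adjusted p = 1.2e-10), Klf2 fell by 0.89 (SE 0.08, 2.1e-14), Klf3 fell by 0.65 (SE 0.09) and Tcf7 fell by 0.55 (SE 0.09). Klf6 and Foxo1 were each higher by 0.30 (SE 0.05 and 0.04, edgeR adjusted p = 2.3e-06 and 2.1e-07). Each cell was also thinned to 1000 UMIs and the classes drawn again from the thinned counts, so class membership changed as well as depth. That left 142 to 691 cells per library in this class, in place of 235 to 915. The log2 differences were then -1.61 for Lef1, -1.33 for Klf2 and -0.86 for Tcf7. Without thinning, Klf2 ranged from 88.3 to 140 CPM over the 8 libraries of this class, with a mean of 110 CPM.

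In the Foxp3 class, 4 of the 6 genes were lower and none was higher, with 42.8% of all genes called. Tcf7 had its largest difference here and fell by 1.39 (SE 0.10, edgeR adjusted p = 4.8e-18). Lef1 fell by 0.68 (SE 0.10), Klf2 by 0.53 (SE 0.07) and Klf3 by 0.48 (SE 0.08). The Lef1 call was lost with each cell thinned to 1000 UMIs and the classes drawn again (-0.34, edgeR adjusted p = 0.26). That left 64 to 439 cells per library in the Foxp3 class, in place of 146 to 962. Foxo1 (0.07, SE 0.04, adjusted p = 0.19) and Klf6 (-0.08, SE 0.05, adjusted p = 0.21) did not pass in edgeR. In the Ifng class, where 11.9% of genes were called, Klf6 was higher by 0.45 (SE 0.05, edgeR adjusted p = 3.4e-09) and Lef1 fell by 0.45 (SE 0.13, adjusted p = 0.013), and the other 4 genes were not called. These differences depend on the classes in the comparison: Lef1 averaged 41.03 CPM in the Foxp3, 40.6 CPM in the Ifng and 33.0 CPM in the Il17 class, and Klf2 148, 186 and 110 CPM, with neighbouring ranges overlapping, so a fall against the mean of the other 4 is not a fall against each of them. The Lef1 call was lost without DSS mutant replicate 2 (-0.40, edgeR adjusted p = 0.063). With each cell thinned to 1000 UMIs, Klf6 was higher by 0.76 and Lef1 lower by a log2 difference of -1.21 in this class.

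**Figure D2:**
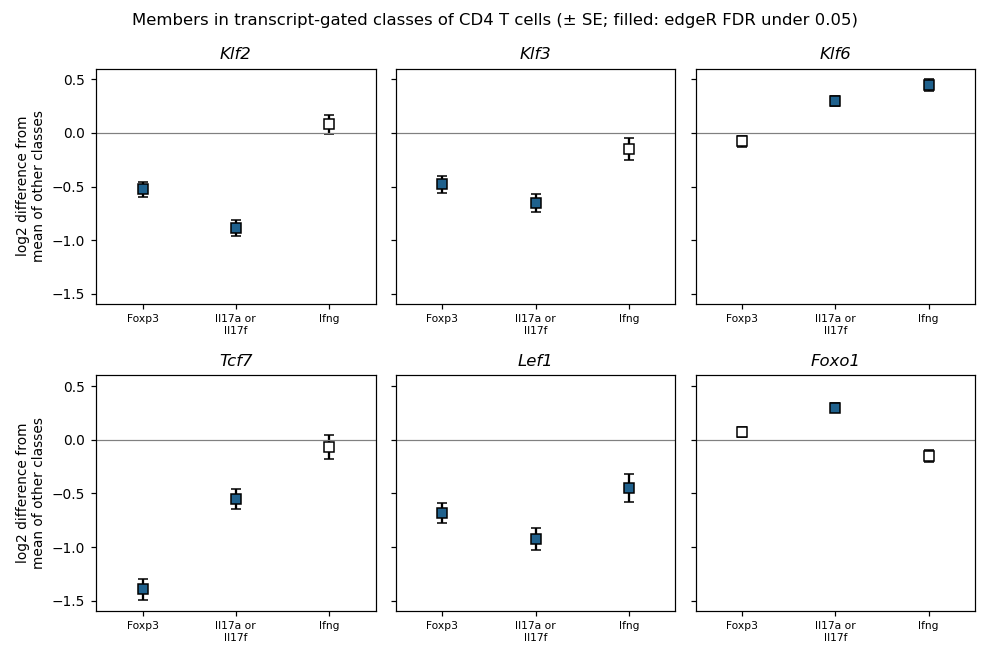
Log2 difference of each gene between 1 class of CD4 T cells and the mean of the other 4 classes, for the classes with Foxp3, Il17a or Il17f, and Ifng transcripts, with bars of 1 SE and filled points for an edgeR adjusted p under 0.05. Klf2, Klf3, Tcf7 and Lef1 lie below 0 in the Foxp3 and Il17 classes, Tcf7 farthest in the Foxp3 class at -1.39, and Klf6 and Foxo1 lie above 0 in the Il17 class.

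Members were also compared from cell to cell. After each CD4 T cell was thinned to 1000 UMIs, Lef1 was found in a median of 10.8% of cells with a Klf2 UMI and in 4.33% of those without, higher in 8 of 8 libraries. Tcf7 was found in 20.1% against 11.5% and S1pr1, the Klf2 target, in 17.0% against 6.29%, again in 8 of 8 libraries each. Cells with a Lef1 UMI held S1pr1 in 18.8% against 6.91% and Ccr7 in 23.6% against 8.31% (8 of 8 libraries each). In contrast, cells with a Klf6 UMI held Tcf7 less often (10.6% against 14.96%, lower in 8 of 8 libraries) and Cd69, an early activation and tissue retention gene, more often (36.0% against 28.2%, 8 of 8). Klf2 and Klf6 were not opposed in this way, since Klf6 was found in 45.4% against 41.2%, higher with Klf2 in 7 of 8 libraries. Cd69 was found in 30.7% against 31.6% for Klf2 (higher in 3 of 8) and in 30.1% against 31.7% for Lef1 (higher in 5 of 8). Itgae, the integrin of cells held at the epithelium, was found in 0.69% of cells with a Tcf7 UMI and in 2.56% of those without, lower in 8 of 8 libraries. These shares pool all subsets and carry no test, since cells of 1 library are not replicates.

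The share of CD4 T cells with at least 1 Klf2 UMI was 28.7% to 32.7% in untreated and 22.1% to 29.3% in DSS libraries, at 1943.5 to 2882 median UMIs per cell. At 1000 UMIs per cell, which left out 231 untreated and 366 DSS cells, it was 14.7% to 17.5% and 12.2% to 14.3%. Lef1 was found in 9.46% to 18.8% of CD4 T cells and in 1.62% to 3.38% of macrophages or monocytes, which should lack it, although their median depth was higher (2698 to 6146 UMIs). Tcf7 was found in 21.5% to 34.8% of CD4 T cells and 4.30% to 7.77% of macrophages or monocytes. At 1000 UMIs per cell, Lef1 was found in 4.38% to 7.21% of CD4 T cells, at most 1.11% of macrophages or monocytes, at most 1.32% of fibroblasts and 1.52% to 6.38% of the cluster named from neutrophil markers. Tcf7 at that depth was found in 10.3% to 15.7% of CD4 T cells, 0.78% to 2.62% of macrophages or monocytes, 3.13% to 6.61% of fibroblasts and 3.13% to 9.78% of the neutrophil-named cluster. Within T cells, the macrophage range was overlapped by Lef1 in Th17-like cells (0.63% to 3.77%), cluster 2 (0.0% to 4.45%) and cluster 6 (0.92% to 4.88%), and by Tcf7 in Th17-like cells (2.46% to 8.80%) and Treg-like cells (2.06% to 5.56%), cluster 2 among them (1.12% to 3.90%). The lowest levels there cannot be told from background.

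Over the 40 sums of library and named subset, each gene's log2(CPM + 1) was taken relative to its mean over the subsets of that library, among 6946 genes of a mean of at least 10 CPM. The genes that ran most like Klf2 were Ablim1 (Pearson r = 0.955), S1pr1 (0.951) and Atp1b3 (0.951). Those most like Lef1 were Ndrg3 (0.962), S1pr1 (0.956) and Cd2ap (0.954), and those most like Tcf7 were the ribosomal protein genes Rpl21 (0.925), Rps29 (0.902) and Rplp2 (0.901). Klf3 ran most like Trim12a (0.919), Scml4 (0.911) and Gramd3 (0.903), Klf6 like Orai1 (0.950), Gna13 (0.946) and Dock10 (0.944), and Foxo1 like Vgll4 (0.907), Nfkb1 (0.903) and Fth1 (0.898). Between members, r was 0.944 for Klf2 and Lef1, 0.856 for Klf2 and Klf3, 0.848 for Klf6 and Foxo1, and -0.835 for Klf6 and Lef1. The points share libraries and subsets, and 1 subset stands far from the others, so these values are descriptive.

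After DSS, averaged over both genotypes, Klf2 was the 1 gene of the 6 that changed in all CD4 T cells together. It held 204 and 208 CPM in untreated wildtype, 246 and 195 CPM in untreated mutant, 150 and 160 CPM in DSS wildtype, and 146 and 152 CPM in DSS mutant libraries, from 1044 to 2272 Klf2 UMIs each. All 4 DSS libraries were below all 4 untreated ones, which 9.63% of the 7000 genes at a mean of at least 10 CPM also showed. In this average, Klf2 fell by 0.56 on the log2 scale (SE 0.08, edgeR adjusted p = 0.0056), that is by 32.2%. In the same comparison 18.4% of 11061 genes were called, and 9.26% were called lower, so 1 of 6 members lower is near that background. In such sums over all CD4 T cells, fewer cells of a Klf2-rich type and less Klf2 per cell cannot be told apart, which the subset values below address in part.

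The other 5 genes did not pass in that comparison. Klf6 (-0.19, SE 0.09) and Tcf7 (-0.19, SE 0.08) each had an edgeR adjusted p of 0.14, and Foxo1 (-0.25, SE 0.11) of 0.12. Klf3 (-0.07, SE 0.08) and Lef1 (0.03, SE 0.15) were closest to 0. Foxo1, for example, ranged from 335 to 363 CPM in untreated and from 260 to 359 CPM in DSS libraries, which overlap.

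**Figure D3:**
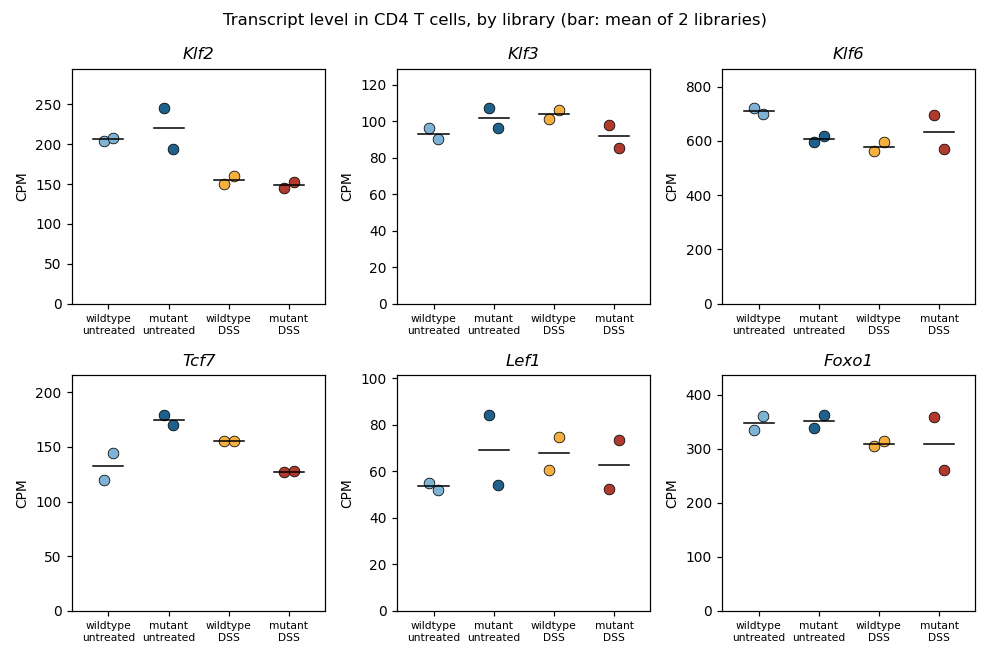
Level of each gene (CPM) in all CD4 T cells of the 8 libraries, by group, with 1 point per library and a bar for the mean of 2. For Klf2 the 4 DSS libraries (146 to 160 CPM) lie below the 4 untreated libraries (195 to 246 CPM), and for the other 5 genes the ranges of the treatments overlap.

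Within wildtype mice alone no member passed in edgeR, where 0.262% of genes were called. Klf2 (-0.48, SE 0.12, edgeR adjusted p = 0.099) and Klf6 (-0.36, SE 0.12, adjusted p = 0.17) had an unadjusted p under 0.05. Klf2 was called there by DESeq2 (adjusted p = 0.041), and in edgeR with no filter on low counts (adjusted p = 0.023) and with a replicate block of neighbouring animal numbers (adjusted p = 0.033). Each such block lay within 1 treatment, so it could not adjust the comparison of DSS with untreated. It only took spread between libraries of the same treatment out of the residual. Within the mutant, where 4.79% were called and 2.57% were called lower, Klf2 fell by 0.64 (SE 0.12, edgeR adjusted p = 0.028) and Tcf7 fell by 0.54 (SE 0.12, adjusted p = 0.039). Neither mutant call held when any 1 of 6 libraries was left out, namely the 4 untreated libraries and both DSS mutant libraries: adjusted p rose to between 0.051 and 0.15 for Klf2 and between 0.056 and 0.16 for Tcf7.

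Klf2 was also lower after DSS inside subsets, most of all in proliferating cells. There it held 131, 164, 166 and 160 CPM in the untreated libraries and 71.8, 63.0, 86.0 and 78.1 CPM in the DSS libraries, in the order wildtype then mutant. The groups did not overlap, as for 7.43% of genes in this direction, and Klf2 fell by 1.09 (SE 0.12, edgeR adjusted p = 8.1e-05), while 10.5% of 7973 genes were called in this subset and 6.13% were called lower. It fell in each genotype alone, by 1.15 (SE 0.17, edgeR adjusted p = 0.0027) in wildtype mice with 3.0% of genes called and by 1.02 (SE 0.17, adjusted p = 0.0052) in the mutant with 1.73% called. In Treg-like cells Klf2 went from 185, 174, 167 and 149 CPM to 129, 88.2, 122 and 110 CPM, without overlap as for 8.36% of genes, and fell by 0.62 (SE 0.13, edgeR adjusted p = 0.0075), with 10.1% of 8306 genes called and 5.35% called lower. In the naive-like (-0.25, SE 0.13), Th1-like (-0.20, SE 0.19) and Th17-like cells (-0.31, SE 0.16) it did not pass, with edgeR adjusted p of 0.27, 0.56 and 0.26, where 6.27%, 9.89% and 5.73% of genes were called. Whether the change differs between subsets was not tested.

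Proliferating cells were the subset in which most members changed, 4 of 6, all lower, beside 6.13% of all genes called lower there. Besides Klf2, Klf6 fell by 0.50 (SE 0.10, edgeR adjusted p = 0.0067), from 436 to 632 CPM to 368 to 439 CPM, ranges that overlap slightly. Tcf7 fell by 0.64 (SE 0.13, edgeR adjusted p = 0.0066), from 105, 120, 137 and 143 CPM to 94.0, 69.3, 91.5 and 74.0 CPM without overlap. Klf3 fell by 0.55 (SE 0.16, edgeR adjusted p = 0.036), but this call was lost under 8 alternatives, DESeq2 (adjusted p = 0.13) among them. Foxo1 (-0.36, SE 0.12) and Lef1 (0.31, SE 0.15, edgeR adjusted p = 0.21) did not pass, although Lef1 was higher without overlap (32.6 to 38.2 CPM against 39.7 to 50.8 CPM), as 9.49% of genes were. The cluster mixes T cell types, and its makeup moved with DSS: 6.02% to 16.0% of untreated and 30.2% to 47.3% of DSS proliferating cells had a Foxp3 UMI. The share with at least 2 Ifng UMIs went from 18.1% to 30.6% in untreated to 9.89% to 15.6% in DSS libraries.

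Split by Foxp3, a step chosen after the data were seen, the proliferating cells gave the following levels. Without a Foxp3 UMI, Klf2 was 141 to 165 CPM in untreated and 55.7 to 94.9 CPM in DSS libraries, and Klf6 was 424 to 623 CPM against 374 to 414 CPM, both without overlap. There 5.94% of genes were lower without overlap. Tcf7 was 116 to 142 CPM against 102 to 137 CPM in these cells, and Klf3 57.9 to 98.3 CPM against 49.3 to 79.5 CPM, so the treatments overlapped for both. With a Foxp3 UMI, Klf2 overlapped (94.3 to 186 CPM against 61.2 to 96.8 CPM), while Tcf7 (66.8 to 198 CPM against 24.2 to 52.0 CPM) and Klf6 (489 to 688 CPM against 358 to 482 CPM) did not, beside 4.51% of genes. The untreated sums of that kind come from 5 to 30 cells per library. These split values were not tested.

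The naive-like cells gave the 1 rise among the named subsets. Tcf7 held 272, 259, 313 and 202 CPM in the untreated and 400, 492, 336 and 516 CPM in the DSS libraries, and rose by 0.66 (SE 0.17, edgeR adjusted p = 0.017), with 2.45% of 3750 genes called higher. The values do not overlap, as for 6.98% of genes in this direction, but the sums are thin, at 47 to 319 Tcf7 UMIs per library, and the call was lost without any 1 of 4 libraries, the second of each group (adjusted p 0.058 to 0.25). In the unnamed cluster 3, Tcf7 rose by 0.39 (edgeR adjusted p = 0.034), from 279, 279, 341 and 283 CPM to 366, 434, 391 and 373 CPM, with 5.81% of genes called. Lef1 was also higher without overlap in Treg-like cells (19.8 to 33.6 CPM against 37.7 to 42.1 CPM, log2 difference 0.56, edgeR adjusted p = 0.063), as were 10.4% of genes. The same held in Th17-like cells (9.05 to 18.1 CPM against 19.2 to 36.7 CPM, 0.73, edgeR adjusted p = 0.11), beside 8.97% of genes, and neither passed. In all, 6 of the 30 tests of a member in a named subset passed, 5 lower and 1 higher, while 5.73% to 10.5% of all genes were called per subset in either direction.

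The Treg-like cells join 2 clusters. In cluster 2, with Foxp3 and Laptm4b at its head, Klf2 fell by 0.84 (edgeR adjusted p = 0.0018) and Lef1 rose by 1.03 (adjusted p = 0.014), with 9.5% of 7652 genes called. Lef1 there is low, at 33.0, 17.0, 12.8 and 14.3 CPM in untreated and 33.1, 44.7, 41.3 and 36.3 CPM in DSS libraries, from 6 to 116 UMIs. At 1000 UMIs per cell its share of cells was 0.0% to 3.27% in untreated and 3.01% to 4.45% in DSS libraries, so the untreated level overlaps that of macrophages or monocytes. In cluster 8, with Klrg1 and Il1rl1 at its head, none of the 6 passed, where 3.51% of genes were called. None passed in clusters 5 and 6 either, where 5.02% and 1.79% were called. In the Foxp3 class, which uses no clustering, Klf2 was 178 to 204 CPM in untreated and 96.5 to 118 CPM in DSS libraries, and Tcf7 75.4 to 119 CPM and 44.0 to 63.4 CPM. Klf6 (686 to 741 CPM and 540 to 648 CPM) and Foxo1 (374 to 430 CPM and 282 to 364 CPM) were also apart, and Klf3 and Lef1 overlapped. In the same class 8.34% of genes were lower without overlap, and these class values were not tested for treatment. Of the 2 other classes reported, Klf2 was lower without overlap in the Ifng class (189 to 277 CPM against 109 to 163 CPM), beside 3.7% of genes, and overlapped in the Il17 class (111 to 140 CPM against 88.3 to 111 CPM). In cluster 5 it was also lower without overlap (335 to 348 CPM against 222 to 309 CPM, edgeR adjusted p = 0.063), beside 5.18% of genes. In the Treg-like cells Tcf7 overlapped (41.7 to 66.5 CPM and 40.5 to 69.7 CPM).

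**Figure D4:**
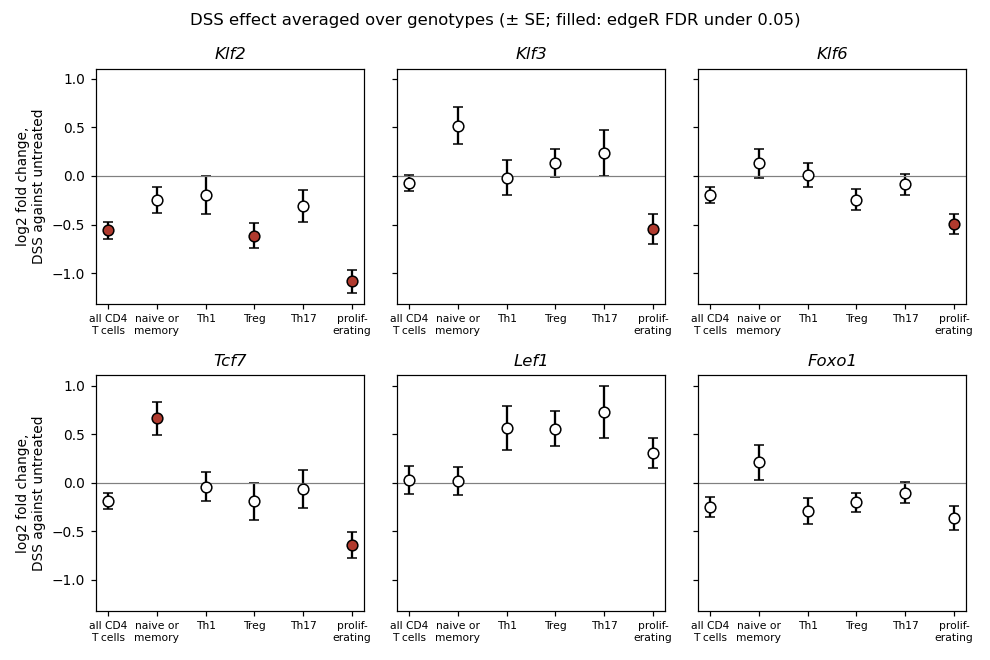
Log2 difference after DSS, averaged over both genotypes, of each gene in all CD4 T cells and in the 5 named subsets, with bars of 1 SE and filled points for an edgeR adjusted p under 0.05. Klf2 lies below 0 in every subset and is called in all CD4 T cells, Treg-like and proliferating cells, and Tcf7 is called higher in naive-like and lower in proliferating cells.

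No member differed between genotypes in the CD4 T cells by edgeR, and 0 of 11061 genes (0.0%) were called in untreated mice, after DSS, or for the difference of the DSS effects. At an unadjusted p under 0.05, 1 of the 6 genes, Tcf7, stood out in each of these 3 comparisons. Tcf7 held 120 and 144 CPM in untreated wildtype and 180 and 170 CPM in untreated mutant libraries (log2 difference 0.40, SE 0.12, edgeR adjusted p = 0.71). After DSS it held 155 and 156 CPM in wildtype and 127 and 128 CPM in mutant libraries (-0.30, SE 0.12, edgeR adjusted p = 1.0). The DSS effect on Tcf7 differed between genotypes by -0.70 (SE 0.16, edgeR adjusted p = 0.98). The groups do not overlap, as for 17.5% of genes higher in the untreated mutant and 8.94% lower in the DSS mutant, and none of the 3 comparisons passed over all genes.

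Dissociation and heat-shock genes, which rise when tissue is digested and include early-response genes, were followed as a list of 20 beside these results. In all CD4 T cells 9 of the 20 were lower and 1 higher after DSS (median log2 difference -0.39 against 0.01 over all genes, of which 9.26% were called lower), for example Atf3 (-2.18), Hsp90aa1 (-1.10) and Jund (-0.85), and Zfp36 was higher (0.55). The list summed to 9897, 13335, 21307 and 21082 CPM in untreated and 11581, 10666, 11416 and 11332 CPM in DSS libraries. In wildtype mice these sums overlapped (9897 and 13335 against 11581 and 10666 CPM) while Klf2 did not. Single genes of the list moved both ways there. Fosb (337 and 353 against 238 and 269 CPM), Ier2, Jund, Egr1, Fos and Atf3 were lower without overlap, as Klf2 was. Zfp36 (98.6 and 88.4 against 149 and 185 CPM), Nr4a1, Dnajb1 and Hspa1b were higher without overlap, and the rest overlapped. In the mutant the sums were apart (21307 and 21082 against 11416 and 11332 CPM), as were Klf2 and Tcf7. Among untreated mice the sums were higher in the mutant than in wildtype, as was Tcf7. Without cluster 6, Klf2 fell by 0.55 (edgeR adjusted p = 0.0084). Leaving out that cluster does not remove the listed genes. In untreated libraries they summed to 10284.5 to 24262 CPM in Th17-like cells and to 8787 to 22090 CPM in cluster 3. In proliferating cells 15 of the 20 were lower, beside 6.13% of all genes, and the sums were 9715 to 17846 CPM against 7557 to 9620 CPM, without overlap, as for Klf2. The part of these genes in the Klf2 and Tcf7 results was not tested further.

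**Figure D5:**
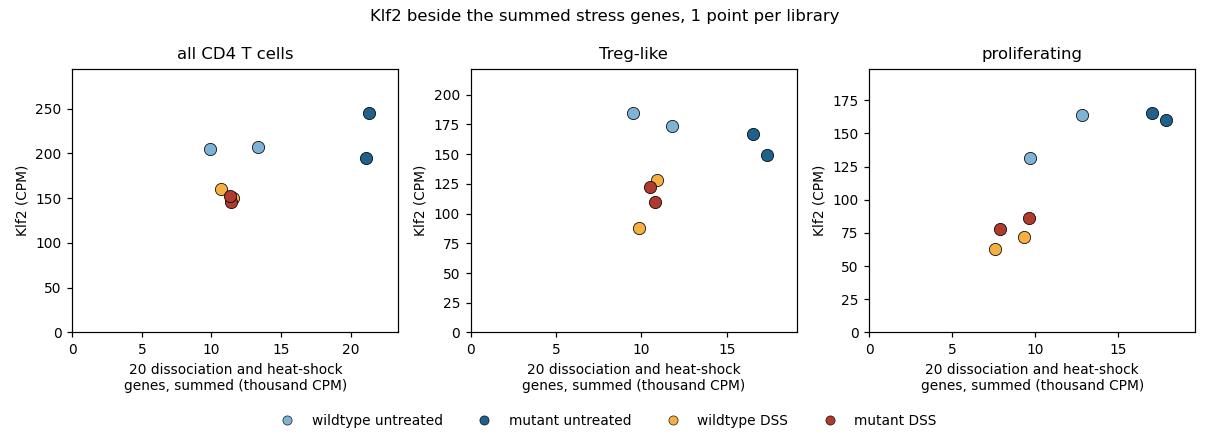
Klf2 level (CPM) against the summed level of the 20 dissociation and heat-shock genes (axis in units of 1000 CPM) in all CD4 T cells, in Treg-like cells and in proliferating cells, 1 point per library. In all CD4 T cells the wildtype libraries overlap on the horizontal axis and not in Klf2, and in proliferating cells the treatments are apart on both axes. The sum does not show single genes of the list, some of which were apart in wildtype libraries too.

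Markers of other cells in the CD4 T cell sums also moved. Treg-like markers summed to 1913 to 2175 CPM in untreated and 2369 to 2521 CPM in DSS libraries, interferon-response genes to 175 to 217 CPM and 111 to 139 CPM. Neutrophil markers went from 0.15 to 1.13 CPM to 3.16 to 11.3 CPM and squamous epithelial markers from at most 0.16 CPM to between 1.05 and 7.95 CPM. The part of these in the Klf2 result was not tested.

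Among 10 homing and survival genes linked to Klf2 and Foxo1, 1 fell and 3 rose in the CD4 T cells after DSS, where 18.4% of all genes were called. S1pr1 fell with Klf2, by 0.41 (SE 0.09, edgeR adjusted p = 0.018), from 83.7, 102, 123 and 103 CPM to 82.5, 75.5, 83.4 and 82.0 CPM. Itgae rose by 1.67 (SE 0.11, edgeR adjusted p = 0.00034), from 11.2 to 14.7 CPM to 38.6 to 48.4 CPM. Il7r, the interleukin-7 receptor, rose by 0.67 (SE 0.09, adjusted p = 0.0040) and Ccr7 by 0.51 (SE 0.14, adjusted p = 0.031). Cd69 (-0.28), Bcl2 (0.10) and S1pr4 (0.05) were among the 6 that did not pass. The list's median was 0.18, against 0.01 over all genes, so the linked genes did not move one way.

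Of 8 other Kruppel-like factors tested, 4 were lower and none higher (median -0.41), beside 9.26% of all genes called lower. The 4 that did not pass were Klf11 (-0.35), Klf7 (-0.0028), Klf8 (0.22) and Klf16 (0.25). Klf13, which is abundant in lymphocytes, went from 314 to 343 CPM to 213 to 250 CPM and fell by 0.57 (SE 0.08, edgeR adjusted p = 0.0052). Klf10 fell by 0.65 (SE 0.15), Klf4 by 0.58 (SE 0.17) and Klf9 by 0.47 (SE 0.13), with edgeR adjusted p of 0.016, 0.043 and 0.036. In proliferating cells 4 of 7 tested were lower (median -0.66), beside 6.13% of all genes.

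Of 18 tested partners and opponents of Tcf7 and Lef1, 4 fell and 2 rose (median -0.13), beside the same 18.4% of all genes. The corepressor gene Tle4 fell by 0.52 (SE 0.09, edgeR adjusted p = 0.0078), the follicular homing receptor Cxcr5 fell by 0.92 (SE 0.15, adjusted p = 0.0076), and the E protein inhibitors Id2 and Id3 fell by 0.49 and 0.90 (adjusted p = 0.011 and 0.015). Ctnnb1, which encodes their coactivator beta-catenin, rose by 0.39 (SE 0.09, adjusted p = 0.021), from 81.8 to 104 CPM to 119 to 133 CPM. Eomes rose by 1.37 (SE 0.42, adjusted p = 0.047) at a low level, 0.81 to 4.44 CPM against 6.21 to 11.6 CPM.

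Of 20 other quiescence genes, 2 rose and 3 fell (median -0.14), which is near the 18.4% called over all genes. Gimap6 fell by 0.42, Slfn2 by 0.36 and Dusp2 by 0.41, and Satb1 rose by 0.33 and Gfi1 by 0.62, each with an edgeR adjusted p under 0.05. Of 13 naive and memory genes, 2 rose and 3 fell (median -0.21), beside 18.4% of all genes. Ms4a4b fell by 0.80 (SE 0.08, adjusted p = 0.0011), from 243 to 318 CPM to 156 to 189 CPM, and Cd27 rose by 0.50 (SE 0.12). Dapl1 fell by 1.35 (SE 0.32) at levels from 0.60 to 3.22 CPM, and Txk fell by 0.37 (SE 0.09).

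Upstream of Foxo1, 2 of 16 genes of the kinase pathway rose and none fell, a smaller share than the 18.4% called over all genes. Phlpp1, a phosphatase that acts on Akt, rose by 1.31 (SE 0.18, edgeR adjusted p = 0.0045), from 14.3 to 22.9 CPM to 38.8 to 62.4 CPM, and Akt1 rose by 0.33 (SE 0.10, adjusted p = 0.044). Of the 2 tested relatives of Foxo1, Foxo4 rose by 0.81 (SE 0.13, adjusted p = 0.0067), from 7.40 to 11.1 CPM to 15.03 to 18.42 CPM. Of 10 activation genes, 3 rose, namely Tnfrsf9 (1.28), Il2ra (0.65) and Ctla4 (0.40), and Tnfrsf4 fell by 0.47, beside 18.4% of all genes called. Ctla4, Il2ra and Tnfrsf4 are also Treg-like markers.

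Klf2 was also followed outside T cells, and the cells that came along with the CD4 enrichment were compared as sums of at least 20 cells per library. Each of these cells had a Cd4 UMI, and no doublet caller was run. The T cell genes listed earlier averaged 155 to 170 CPM in the fibroblast clusters and 222 CPM in the neutrophil-named cluster. They averaged 202 CPM in innate lymphoid cells, 50.7 CPM in macrophages or monocytes and 401 to 561 CPM in the T cell clusters. The part of T cell transcripts in the levels below was not tested. In fibroblasts (1681 cells) Klf2 was 257, 358, 379 and 505 CPM in untreated and 167, 158, 179 and 139 CPM in DSS libraries, a log2 difference of -1.18. In macrophages or monocytes (2885 cells) it was 201, 147, 454 and 292 CPM against 72.4, 103, 86.8 and 99.6 CPM, a difference of -1.47. Neither overlapped, and each gave a two-sided exact permutation p of 0.0286, the smallest that 4 against 4 libraries can give. After adjustment over 24 tests it was 0.098, so none passed. With that floor, a pass needed many of the 24 tests to reach it together. The lack of a pass therefore does not show that Klf2 was unchanged, and it cannot be set beside the edgeR calls in T cells. Klf2 overlapped in innate lymphoid cells (22.8 to 149 CPM against 99.3 to 135 CPM, log2 difference 0.61) and in the neutrophil-named cluster (119 to 164 CPM against 73.0 to 164 CPM, -0.51). Klf6, Tcf7 and Foxo1 were also lower without overlap in fibroblasts, and Klf3 was higher in macrophages or monocytes (log2 difference 0.40) and in the cluster named from neutrophil markers (0.23, 797 cells), which also had the dendritic cell genes Il12b, Ccl22 and Ccl17 among its leading genes. That makes 5 of 24 without overlap below and 2 above, while 11.9% and 9.29% of genes were below and above in fibroblasts, 6.04% and 23.2% in macrophages or monocytes, 4.65% and 10.7% in the neutrophil-named cluster, and 2.12% and 3.64% in innate lymphoid cells (428 cells), which had none.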

How the data were processed

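Each library's UMI table was deposited by the authors as whole-number counts, 1 row per gene and 1 column per barcode. Cell Ranger 3.1.0, Seurat 4.0.1 and mm10 are named in the submitters' processing notes, and how cells were chosen is not given in the sources used here. The row order of the numbered tables follows the deposited gene list, and 98.5% of identifiers found in a reference table had the listed symbol. The libraries held 34497509 to 46960005 UMIs, and 88 listed barcodes occur in more than 1 library. The authors' cell list was used and no doublet caller was run. Cells were clustered in scanpy 1.11.5 (2000 variable genes, of which 1803 were kept after removing the 6 members, effector, receptor, sex-linked and other listed genes, 30 components, 15 neighbours, Leiden at resolution 1 in leidenalg 0.10.2). Clusters were named from fixed markers, with thresholds set after the clusters were seen.

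Counts were summed per library and population and tested in edgeR 4.0.16 (quasi-likelihood, TMM, filterByExpr, 4 group means, threshold 0.05 after Benjamini-Hochberg adjustment over all genes tested), on R 4.3.3. The class test had library as a block. Further classes of that test, and 1 gene of the lists, are not reported here. Genes other than members were named by fixed lists, or as the 3 most alike in level to a member. The members and lists were chosen with earlier results of these data known. The scripts were tested on simulated data. Nothing says that libraries of 1 group came from separate cages or days, so p-values of the DSS and genotype comparisons measure the spread between these libraries. Those of the class test, with library as a block, measure how far class differences vary from library to library, treatments included. Alternatives were DESeq2 1.42.0, other size factors, no filter, a block, other cell sets and leaving out each library.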

Additional observations from a re-analysis of the deposited data

Results flagged for a closer look

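For Tcf7 in all CD4 T cells, both DSS libraries of the wildtype lay above both untreated ones and both DSS libraries of the mutant lay below theirs, and the DSS effects differed by -0.70 on the log2 scale (edgeR adjusted p = 0.98 over all genes). In Th1-like cells Tcf7 moved the same opposite ways, from 93.6 and 117 CPM to 170 and 141 CPM in wildtype and from 169 and 174 CPM to 142 and 108 CPM in mutant mice, a difference of -1.11 (edgeR adjusted p = 1.0). Klf6 in Th1-like cells went from 759 and 772 CPM to 662 and 696 CPM in wildtype and from 518 and 672 CPM to 806 and 691 CPM in the mutant, a difference of 0.47 (edgeR adjusted p = 1.0). None of these 3 differences passed over all genes. Th1-like cells are part of the CD4 T cells, so the Tcf7 values are not independent. The share of all genes that moved in opposite ways in the genotypes was not counted. Whether these patterns are unusual among all genes therefore cannot be said.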

How the results depend on the processing

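Averaged over genotypes, the fall of Klf2 in CD4 T cells kept its call under all 15 alternatives run (log2 -0.63 to -0.48, adjusted p 1.7e-06 to 0.045). In wildtype mice 1 member instead of 0 was called with no filter on low counts, with the replicate block of neighbouring animal numbers, and in DESeq2, each time Klf2. The labels do not say that those numbers mark a shared litter or day, and no block held both treatments. In the mutant, 0 members instead of 2 were called when only the libraries compared were fitted, and 1 with T cells taken whether or not they had a Cd4 UMI, and 1 without the cluster led by prostate and seminal vesicle genes. Leaving out single libraries gave 0 to 2 there. It gave 1 to 3 averaged over genotypes and 4 to 10 in place of 6 in the named subsets, the 3 and the 10 both without DSS mutant replicate 1, where Klf6 (-0.26, adjusted p = 0.048) and Foxo1 (-0.37, adjusted p = 0.021) were added in CD4 T cells.

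Signs turned only for values that were not called. For DSS in the mutant, Klf6 was 0.14 without that cluster and -0.17 to 0.12 with single libraries left out, and Lef1 -0.48 to 0.12. Averaged over genotypes, Lef1 was -0.058 over those cells, -0.014 without that cluster and -0.11 to 0.19 with single libraries left out. For mutant against wildtype in untreated mice, Foxo1 was -0.00096 with no filter, -0.030 over those cells and -0.061 to 0.081 with libraries left out, and Klf2 was -0.065 to 0.23. After DSS, leaving out libraries gave -0.039 to 0.25 for Klf6, -0.38 to 0.10 for Lef1 and -0.26 to 0.21 for Foxo1. The difference of DSS effects for Foxo1 was 0.012 over those cells and -0.28 to 0.19 with libraries left out. The cause was not tested. Of 62 single-gene results, 43 changed neither side nor sign. The 62 hold every comparison over all CD4 T cells, called or not, but subset and class results only where they were called.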
